A study of Mus musculus with 48 samples.

Results

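The caecal transcriptome of mice given the sesquiterpene lactones of chicory root (STL) was set against that of their control mice (Ctr2). All 3 STL and both Ctr2 caecum arrays of the series entered the comparison, out of 16 caecum arrays and 48 arrays in all, and 3777 genes were tested on each. The mice were BALB/cOlaHsd, 8 weeks old at the start, and received 500 µl by gavage each day for 30 days. The STL solution held lactucin, lactucopicrin and the dihydro form of each in amounts set after their content in chicory roots. Ctr2 mice were given water according to the sample labels and a dilute DMSO solution according to the methods on feeding, and the methods on the arrays name drinking water. Another group, 3 mice given chlorogenic acids (CGA), shares the Ctr2 control and served as a second comparison. The methods name male mice, whereas the labels tag the 3 STL and 3 CGA caecum arrays as female and both Ctr2 arrays as male. The labels call the tissue caecum, and the series text also speaks of a colon segment. Each array held the RNA of 1 mouse. A p-value against Ctr2 thus compares 3 with 2 animals, and one against CGA 3 with 3. The spread was estimated over all 6 caecum groups.

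Sesquiterpene lactones are the bitter compounds of chicory. Lactucin and lactucopicrin carry a reactive methylene group next to the lactone carbonyl, which can bind thiol groups of proteins, and the dihydro forms lack it. Molecules of this class are known to act on 2 regulators with reactive cysteines: Keap1, which holds back the antioxidant factor Nrf2, and the NF-κB pathway of inflammation. The caecum is lined by colonocytes and mucus-filled goblet cells, and it adjoins the terminal ileum, whose crypts hold Paneth cells filled with antimicrobial defensins.

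The deposited intensities had array medians of 1447, 1040 and 505 in the STL mice and of 1291 and 1000 in the Ctr2 mice, and of 198 to 1704 over the 16 arrays. All values below are log2 intensities after quantile normalization over the 16 arrays, and a difference of 1 is a doubling. Across genes, STL arrays correlated with one another at r between 0.88 and 0.96, the Ctr2 arrays at 0.91, and STL with Ctr2 arrays at 0.88 to 0.97. The defining genes of the tissue were bright in all 5 mice: the colonocyte water channel Aqp8 lay between 14.06 and 14.39, carbonic anhydrase Car1 between 13.80 and 15.54, and the goblet cell lectin Zg16 between 14.48 and 14.86. The Y-linked gene Eif2s3y was read at 9.40, 8.95 and 8.34 in the STL mice and at 8.74 and 8.62 in the Ctr2 mice, so the groups overlapped whatever their sex tag. In whole tissue, fewer cells of a type and less RNA per cell cannot be told apart.

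No gene passed the adjusted threshold of 0.05 in limma (0 of 3777, a background of 0%), and the lowest adjusted p was 0.823. At an unadjusted p under 0.05, 87 genes were higher in STL (2.3% of those tested) and 21 lower (0.556%), 108 in all (2.86%), where 188.85 are expected by chance. The median difference over all genes was 0.03 with a median standard error of 0.27. In 420 genes (11.1%) all 3 STL mice lay above both Ctr2 mice, and in 228 (6.04%) all lay below. The genes that follow are described by their values in the order of their unadjusted p. None of them passed the test. Of the 108 genes, 7 that carry only a gene model, clone or LOC name, 5 of them lower, were left out of that order. With 1 of the 5 mice left out, the difference of 58 of the 97 genes named with a difference moved by over 1.5 times or turned its sign.

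**Figure D1:**
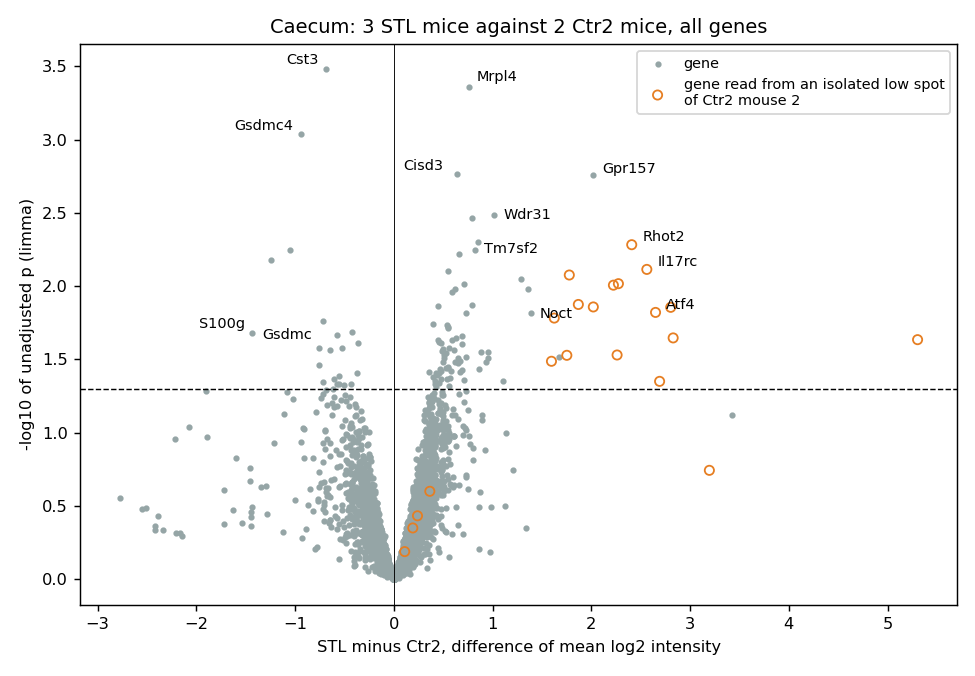
Each point is one of 3777 genes in the caecum, with the mean log2 intensity of 3 STL mice minus that of 2 Ctr2 mice on the horizontal axis and −log10 of the unadjusted limma p on the vertical axis; the dashed line marks a value of 0.05. Most of the points far to the right above the line are genes read from isolated low spots of the array of Ctr2 mouse 2 (open circles), and Cst3 and Mrpl4 stand highest.

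One array shaped the right side of that plot. On the array of Ctr2 mouse 2, 31 gene spots lay more than 2 log2 units below every other caecum array, and 27 of them fell among the lowest feature numbers of the array, up to 1 in 3 of their range, a stretch that holds 30.9% of the gene spots. The other 15 arrays had 0 to 24 such spots. Of the 87 genes higher at unadjusted p under 0.05, 16 were read from these spots. The mitochondrial GTPase Rhot2 was read at 9.22, 9.31 and 9.31 in the STL mice, at 8.81 in Ctr2 mouse 1 and at 4.93 in Ctr2 mouse 2. The receptor subunit Il17rc lay at 11.10, 11.28 and 11.47 in STL and at 10.96 and 6.48 in Ctr2. In both genes, and in the cyclin D1-binding protein Ccndbp1 (9.62, 9.68 and 9.17 against 9.25 and 6.18), Ctr2 mouse 1 lay close to the STL mice and Ctr2 mouse 2 far below. Their differences of 2.41, 2.56 and 1.78 therefore rest on 1 spot each. With those spots set to missing, 73 genes were higher and 22 lower at unadjusted p under 0.05, and 0 were called.

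Cst3, which encodes the secreted cysteine protease inhibitor cystatin C, had the lowest p of all genes. It was read at 10.99, 11.07 and 11.10 in the STL mice and at 11.78 and 11.70 in the Ctr2 mice. All 3 STL mice lay below both controls, below the CGA mice (11.60, 11.47 and 11.71) and below each of the 13 other caecum arrays. STL minus Ctr2 was −0.69 ± 0.14 (SE; limma, adjusted p = 0.823), a 0.622-fold level, and STL minus CGA was −0.54 ± 0.13 (limma, adjusted p = 1.00). Of the 3777 genes, 6 had all 3 STL arrays below the 13 others and 4 had all above, counts that were not tested against chance. Besides Cst3, the lower ones included Pde4c, a cyclic AMP phosphodiesterase, at 9.85, 9.65 and 9.85 against 10.33 and 10.08. Cfap300, a cilia and flagella gene, was another, at 8.67, 8.64 and 8.70 against 9.55 and 8.93 (−0.57 ± 0.22, and −0.26 without Ctr2 mouse 1). Pde4c differed by −0.42 ± 0.16 from Ctr2 and by −0.49 ± 0.14 from CGA. In Pde4c and Cfap300, the mice given chicory decoction or fructose and their control (Ctr1) also had means above Ctr2. For Ctr1, decoction and fructose these were 11.18, 10.65 and 10.82 in Pde4c, against 10.20 in Ctr2. In Cfap300 they were 9.92, 9.48 and 9.59, against 9.24.

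The gasdermin C genes, which encode pore-forming proteins of the colonic epithelium, were also among the lower genes. Gsdmc4 lay at 10.88, 10.89 and 10.22 in STL and at 11.36 and 11.86 in Ctr2, a difference of −0.94 ± 0.22 (limma, adjusted p = 0.999). Gsdmc lay at 11.02, 11.24 and 10.20 against 11.50 and 11.57, a difference of −0.72 ± 0.26, which was −0.41 without STL mouse 3. The 2 genes are close paralogs, and probes may read both. The CGA mice, which share the Ctr2 control, read 10.52, 10.74 and 10.65 for Gsdmc4, and STL minus CGA was 0.03 ± 0.20. With Ctr1 and Ctr2 pooled as controls, the Gsdmc4 difference was −0.61. Between the 2 genes in the order of p among lower genes lay Gm5176 and 2210407C18Rik, known only by gene model or clone names. Of these, 2210407C18Rik, given here after its values were seen, lay at 7.02, 6.67 and 7.27 against 7.83 and 8.64 (−1.25 ± 0.39).

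S100g encodes calbindin-D9k, the vitamin D-dependent calcium-binding protein of absorbing enterocytes. It was read at 9.75, 10.30 and 11.76 in the STL mice and at 11.48 and 12.60 in the Ctr2 mice. STL mouse 3 lay between the controls, and the other 2 STL mice lay below all 13 arrays of the other groups. The difference was −1.44 ± 0.55 (limma, adjusted p = 0.999), and −0.88 without Ctr2 mouse 2. Against CGA it was −1.11 ± 0.49.

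The other lower genes of lowest p came from general cell functions. The ribosomal protein Rpl5 lay at 11.68, 11.84 and 11.34 against 12.33 and 12.44 (−0.76 ± 0.30). The small heat shock protein Hspb1 lay at 10.48, 10.62 and 10.77 against 11.28 and 11.27 (−0.65 ± 0.26), and the nascent chain factor Naca differed by −0.76 ± 0.32, or −0.44 without STL mouse 3. In Rpl5 and Hspb1 every STL mouse lay below both controls. Smaller differences were read for the splicing factor Sf3a3 (−0.36 ± 0.14), the replication licensing factor Cdt1 (−0.37 ± 0.16) and the respiratory subunit Ndufa2 (−0.56 ± 0.25).

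Among the higher genes, 2 mitochondrial ones led. Mrpl4, a protein of the mitochondrial ribosome, was read at 10.53, 10.65 and 10.78 in STL and at 10.07 and 9.71 in Ctr2, a difference of 0.76 ± 0.16 (limma, adjusted p = 0.823). Cisd3, an iron-sulphur protein of mitochondria, was read at 12.16, 12.05 and 11.92 against 11.48 and 11.33, a difference of 0.64 ± 0.16. The groups were apart in both, and so were the CGA mice from Ctr2: STL minus CGA was 0.12 ± 0.15 for each gene. Tufm, the mitochondrial translation factor, differed by 0.65 ± 0.20 from Ctr2. Mitochondrial genes did not go one way as a whole, as the respiratory chain described further on and Ndufa2 show.

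Gpr157, an orphan G protein-coupled receptor, had the largest difference among the genes at unadjusted p under 0.05 that were not read from isolated spots. It lay at 9.69, 10.38 and 10.50 in STL, at 8.69 and 7.65 in Ctr2 and at 8.21, 9.40 and 8.40 in CGA. Each STL mouse was above every mouse of both other groups, by 2.02 ± 0.52 on average over Ctr2 (limma, adjusted p = 0.999) and by 1.52 ± 0.46 over CGA. One Chic mouse, given chicory decoction, read 10.22 and fell within the STL range. The WD-repeat gene Wdr31 lay at 14.41, 14.06 and 14.13 against 13.27 and 13.10 (1.01 ± 0.28). Here too Chic mouse 1 fell within the STL range, at 14.28. Further down the order came the septin Septin3 (0.79 ± 0.22), the exchange factor Plekhg3 (0.86 ± 0.26), the sterol reductase Tm7sf2 (0.82 ± 0.25) and the proteasome ATPase Psmc1 (0.55 ± 0.18), each with all STL mice above both controls. Psmc1 was also higher in the CGA mice (11.61, 11.73 and 11.50) than in Ctr2 (10.96 and 10.98).

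**Figure D2:**
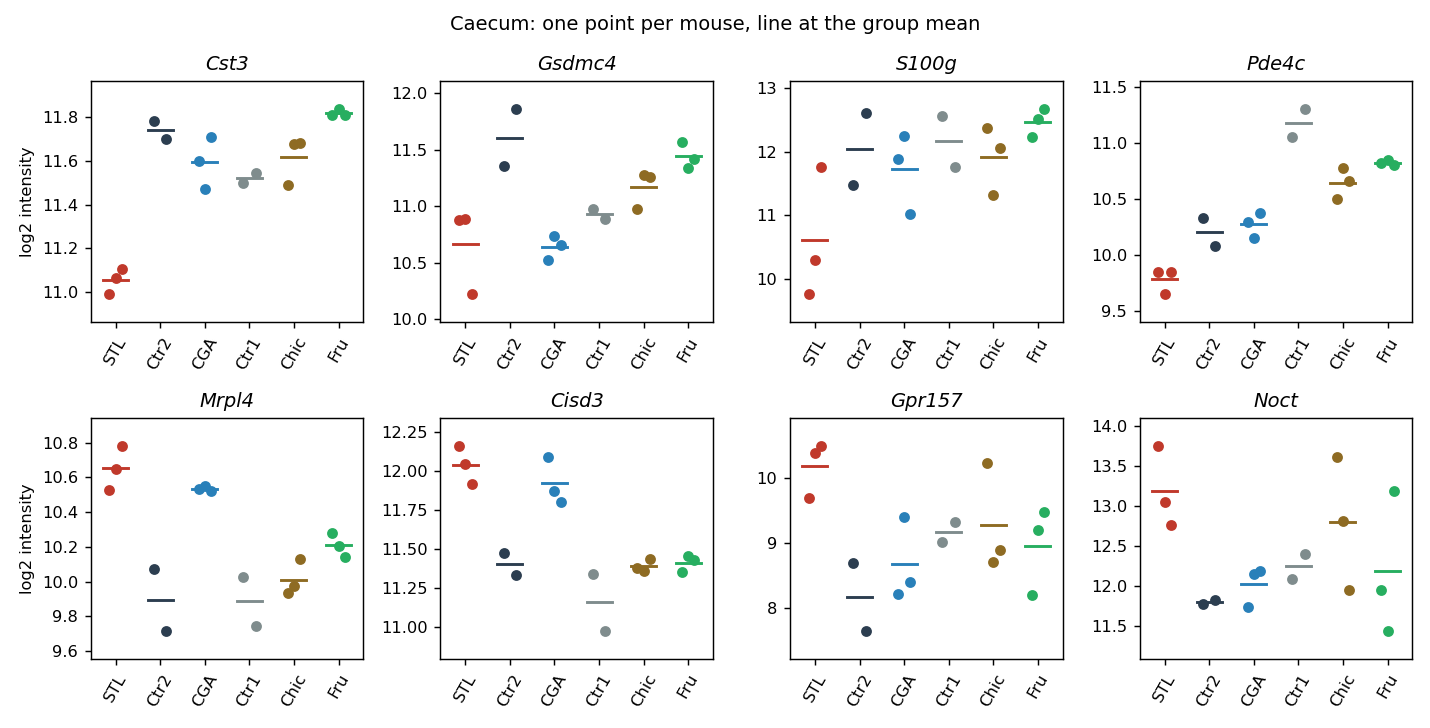
Log2 intensity of 8 genes in the caecum, one point per mouse in each of the 6 groups of the series, with a line at the group mean. The 3 STL mice lie below all other mice in Cst3 and Pde4c, whereas in Gsdmc4, Mrpl4 and Cisd3 the CGA mice lie with the STL mice and apart from Ctr2.

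The study followed 16 caecal gene profiles, picked for the chicory decoction, through the other diets. Of these, 8 lay above and 8 below the Ctr2 mean in STL mice, with a median of −0.04, against 0.03 over all genes. None passed the adjusted threshold. Noct, a circadian deadenylase, was read at 13.76, 13.05 and 12.76 in STL and at 11.77 and 11.83 in Ctr2. The groups were apart by 1.38 ± 0.50 (limma, adjusted p = 0.999), and STL exceeded CGA by 1.16 ± 0.45. However, the difference from Ctr2 was 0.66 when the probes of Noct were averaged. Chicory decoction mice 1 and 2 (13.62 and 12.82) and fructose mouse 3 (13.19) fell within the STL range of Noct. The fatty acid hydroxylase Fa2h lay at 11.38, 11.56 and 10.98 against 10.80 and 10.84 (0.48 ± 0.28), and S100g stood at the lower end as described. Sec11a, a signal peptidase subunit, lay at 10.77, 10.69 and 10.28 against 11.01 and 10.89 (−0.37 ± 0.21). The co-repressor Irf2bp2 differed by 0.26 ± 0.34, the complement protease Cfd by −0.52 ± 0.82, Pigt by −0.48 ± 0.70 and Chtf8 by −0.23 ± 0.56. The remaining 8 profiles (Akr1b8, Anp32a, Cables1, Cox7c, Ctbp2, Gla, Mzb1 and Saa3) differed by −0.15 to 0.11.

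The targets of Nrf2 and the enzymes of thiol defence address the known chemistry of these lactones. Of 40 measured members 25 lay above the Ctr2 mean (62.5%, against 55.4% of all genes), 4 had all STL mice above both controls (10%, against 11.1%) and 1 had all below. The median difference was 0.08. Cbr1, a carbonyl reductase, was read at 10.19, 10.03 and 9.99 against 9.71 and 9.47 (0.48 ± 0.21, limma, adjusted p = 0.999), with the groups apart. Ugdh, which makes the sugar donor for glucuronidation, was read at 13.40, 12.91 and 12.37 against 12.25 and 12.30 (0.62 ± 0.32), and the mitochondrial superoxide dismutase Sod2 at 12.0004, 11.87 and 11.63 against 11.33 and 11.52 (0.41 ± 0.20). The metallothionein Mt2 ranged from 11.15 to 12.96 in STL and from 10.48 to 11.55 in Ctr2, so its groups overlapped. Among textbook Nrf2 targets Txnrd1 differed by 0.02 and Gclc, the rate-limiting enzyme of glutathione synthesis, by 0.35. Of 33 phase I and II enzymes 22 lay above the control mean (median 0.11), 2 had all STL mice above both controls (6.06%) and none passed. The retinal dehydrogenase Aldh1a1 differed by 0.42 ± 0.22 (0.21 without Ctr2 mouse 1) and the cytochrome Cyp2s1 by 0.37 ± 0.20. With Ctr1 and Ctr2 pooled the values were 0.23 and 0.04. At the lower end the sulphotransferase Sult1c2 differed by −0.55 ± 0.35, or −0.21 without STL mouse 3.

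Targets of NF-κB and inflammatory mediators showed no common direction, with 11 of 21 above the control mean and a median of 0.06. The inhibitor Nfkbia differed by 0.09 and the subunit Rela by 0.16. The chemokines Ccl5 (−0.61 ± 0.46) and Ccl6 (−0.58 ± 0.40) and the cytokine Il18 (−0.36 ± 0.24) followed Sod2 in the order of the moderated statistic. Ccl6 was read at 9.59, 9.82 and 9.67 in STL and at 9.89 and 10.65 in Ctr2.

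Interferon-response and antigen presentation genes showed no common direction. Of 41 measured members 19 lay above the Ctr2 mean and 22 below (median −0.09), and 8 had all STL mice above both controls (19.5%, against 11.1% of all genes) and 3 all below (7.32%). Rtp4, an interferon-induced gene, lay at 9.62, 8.77 and 8.69 against 8.22 and 7.98 (0.93 ± 0.39). Irf9, the DNA-binding subunit of the interferon-stimulated complex, lay at 8.99, 8.63 and 8.98 against 8.35 and 7.93 (0.73 ± 0.26). The class I gene H2-Q7 lay at 11.57, 11.55 and 11.51 against 10.60 and 11.07 (0.71 ± 0.23, limma, adjusted p = 0.999). These 3 genes had every STL mouse above both controls. H2 genes are near-identical copies, so H2-Q7 is uncertain as a single gene. Ifngr1 (1.87 ± 0.66) was read from an isolated low spot of Ctr2 mouse 2. The immunoproteasome subunit Psmb10, which cuts peptides for antigen presentation, was read at 11.12, 11.32 and 11.24 against 12.03 and 11.30 (−0.44 ± 0.20, and −0.07 without Ctr2 mouse 1). Its partner Psmb8 was read at 9.21, 8.82 and 9.54 against 9.38 and 10.18 (−0.59 ± 0.37, and −0.19 without Ctr2 mouse 2). The groups overlapped in both.

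Genes of protein folding and secretion lay mostly below the controls. The unfolded protein response is the programme by which a cell with misfolded protein in the endoplasmic reticulum raises its chaperones and secretory machinery. Of 60 measured genes of this response and of the secretory pathway, 45 lay below the Ctr2 mean (75%, against 44.6% of all genes), with a median of −0.13. In 13 of them all 3 STL mice lay below both controls (21.7%, against 6.04% of all genes), and in 1 all lay above. The median was below that of all genes with each of the 5 mice left out in turn, with a gap of −0.11 to −0.24. Against the CGA mice 32 of 60 lay below the CGA mean (51.5% of all genes did), with a median of −0.01.

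Hspa5 (BiP), a chaperone of the endoplasmic reticulum, was read at 11.68, 11.37 and 11.69 in STL and at 12.37 and 12.02 in Ctr2. All 3 STL mice were below both controls, by −0.62 ± 0.29 (limma, adjusted p = 0.999), a 0.651-fold level. Manf, a secreted factor of endoplasmic reticulum stress, lay at 8.93, 8.80 and 9.04 against 9.61 and 9.21 (−0.49 ± 0.28, and −0.28 without Ctr2 mouse 1), and the disulphide isomerase Pdia3 lay at 9.47, 9.33 and 9.19 against 9.84 and 9.78 (−0.48 ± 0.27). Creld2, another stress-induced endoplasmic reticulum protein, lay at 9.77, 9.91 and 10.72 against 10.44 and 11.19 (−0.68 ± 0.40, and −0.31 without Ctr2 mouse 2). The chaperones Hsp90b1 (11.37, 11.54 and 12.0004 against 11.94 and 12.14) and Calr (10.05, 9.84 and 10.73 against 10.50 and 10.59) were low in STL mice 1 and 2 but not in mouse 3, so the groups overlapped in these 3 genes. Xbp1, a transcription factor of the response, differed by −0.01, and Syvn1, a ubiquitin ligase of the same system, by 0.06. Atf4 (2.65 ± 0.95) and Sec61a1 (2.69 ± 1.21) were the 2 members far above, and both were read from isolated low spots of Ctr2 mouse 2. Atf4 lay at 12.27, 12.20 and 11.88 in STL, at 11.97 in Ctr2 mouse 1 and at 6.96 in Ctr2 mouse 2. With Ctr1 and Ctr2 pooled as controls, the negative differences named here were smaller. Hspa5 then differed by −0.28, Creld2 by −0.21, Pdia3 by −0.33 and Calr by −0.29. Manf (−0.02) and Sec11a (−0.09) lay near the control level, and Hsp90b1 (0.03) and Pdia6 (0.13, from −0.23 against Ctr2) were no longer negative.

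**Figure D3:**
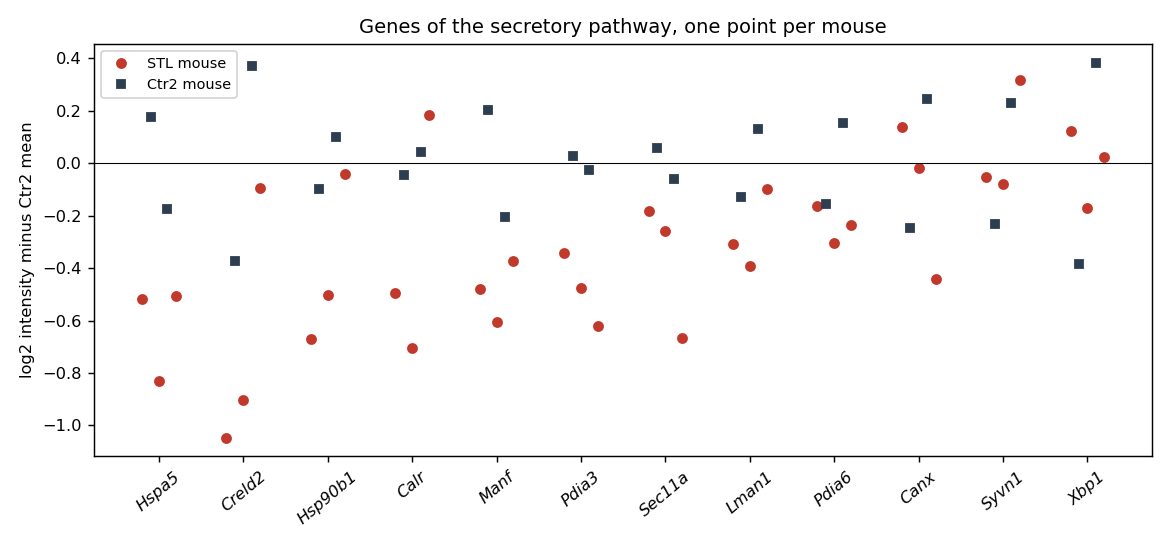
Log2 intensity minus the Ctr2 mean for 12 genes of the secretory pathway in the caecum, one red circle per STL mouse and one dark square per Ctr2 mouse. All 3 STL mice lie below both controls in Hspa5, Manf, Pdia3, Sec11a and Pdia6, and the groups overlap in Syvn1 and Xbp1.

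The ER stress element, the best known control sequence of these chaperones, reads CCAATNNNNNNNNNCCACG on either strand and is bound by NF-Y and the stress factors Atf6 and Xbp1. RefSeq promoters of build GRCm38.p6, from 250 bases before to 50 after the start, were found for 50 of the 60 genes. The element was matched in 7 of the 50 (14%), against 8 of 3003 promoters of measured genes (0.266%) and 39 of 32851 in all (0.119%). No other motif was searched. The 7 genes differed from Ctr2 by −0.68 to 0.06, and 6 of them were negative, in a list of which 75% were. The promoters of 4 of them are shown, because these chaperones carried the largest negative values among the 7; the element is in capitals. They lie at chr2:34771840-34772139 (plus strand, Hspa5), chr15:88819396-88819695 (plus, Creld2), chr10:86705395-86705694 (minus, Hsp90b1) and chr8:84846882-84847181 (minus, Calr).
Hspa5: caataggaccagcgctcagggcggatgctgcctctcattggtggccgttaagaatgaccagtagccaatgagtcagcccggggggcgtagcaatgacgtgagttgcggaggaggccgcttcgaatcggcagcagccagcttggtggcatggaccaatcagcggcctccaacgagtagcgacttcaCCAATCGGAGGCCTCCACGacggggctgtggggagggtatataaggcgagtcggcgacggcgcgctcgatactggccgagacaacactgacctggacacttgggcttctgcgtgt
Creld2: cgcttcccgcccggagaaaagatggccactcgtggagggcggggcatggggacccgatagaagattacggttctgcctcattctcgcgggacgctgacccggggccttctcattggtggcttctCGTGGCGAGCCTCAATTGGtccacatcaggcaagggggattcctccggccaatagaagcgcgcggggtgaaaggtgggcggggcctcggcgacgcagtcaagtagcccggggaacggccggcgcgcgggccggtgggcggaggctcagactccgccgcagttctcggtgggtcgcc
Hsp90b1: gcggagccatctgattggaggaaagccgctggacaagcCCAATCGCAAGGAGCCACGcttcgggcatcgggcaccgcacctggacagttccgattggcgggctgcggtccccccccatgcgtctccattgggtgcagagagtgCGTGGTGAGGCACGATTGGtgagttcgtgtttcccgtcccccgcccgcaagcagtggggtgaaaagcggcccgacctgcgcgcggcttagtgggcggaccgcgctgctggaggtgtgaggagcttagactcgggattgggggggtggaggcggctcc
Calr: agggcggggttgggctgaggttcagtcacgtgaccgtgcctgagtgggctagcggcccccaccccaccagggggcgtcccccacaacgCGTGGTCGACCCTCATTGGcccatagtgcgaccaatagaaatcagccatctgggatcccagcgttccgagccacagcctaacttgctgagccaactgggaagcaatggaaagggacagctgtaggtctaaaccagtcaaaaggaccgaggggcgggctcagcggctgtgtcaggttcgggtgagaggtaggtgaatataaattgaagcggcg
Hsp90b1 holds 2 matches and the others 1 each. A match describes these letters and says nothing of binding in these mice.

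The heat shock and chaperone list and the ribosomal proteins leaned the same way with smaller medians. The first of these is not confined to the cytosol and shares Hspa5 with the secretory genes above. Of 29 heat shock and chaperone genes 20 lay below the Ctr2 mean (median −0.09), and 6 had all STL mice below both controls (20.7%, against 6.04%). The co-chaperone Dnaja1 was read at 11.37, 11.10 and 10.59 against 12.02 and 11.60 (−0.79 ± 0.40). Hspa8, the constitutive heat shock cognate, went the other way in 2 mice (11.56, 13.16 and 13.36 against 11.99 and 11.86; 0.77 ± 0.46), but differed by −0.09 with its probes averaged. The list's median was 0.07 without Ctr2 mouse 1. Of 80 cytosolic ribosomal proteins 51 lay below (63.75%, against 44.6% of all genes), with a median of −0.07. In 12 all STL mice lay below both controls (15%, against 6.04%) and in 5 all lay above (6.25%, against 11.1%). Rpl30 differed by −0.38 ± 0.20 and Rps29 by −0.31 ± 0.17. Of 54 proteasome and ubiquitin genes 35 lay below (64.8%, median −0.09).

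Genes of oxidative and lipid metabolism lay close to the controls. Of 83 respiratory chain subunits 48 lay above the Ctr2 mean (median 0.05), 13 with all STL mice above (15.7%, against 11.1%), among them Ndufa12 at 11.56, 11.71 and 11.50 against 11.10 and 10.90 (0.59 ± 0.23). Of 36 genes of fatty acid oxidation and peroxisomes 26 lay above (median 0.08). The sphingolipid list held 14 of 21 above (median 0.10), and 5 had all STL mice above both controls (23.8%). The alkaline ceramidase Acer1 lay at 10.12, 10.36 and 10.43 against 9.75 and 9.76 (0.55 ± 0.21), and the ganglioside synthase St3gal5 at 11.28, 10.88 and 10.64 against 10.47 and 10.48 (0.46 ± 0.23). Ormdl3, which restrains the first enzyme of sphingolipid synthesis, lay at 8.94, 8.99 and 8.998 against 9.35 and 9.27 (−0.33 ± 0.17), with the groups apart. CGA mice were close to STL mice in all 3 of these genes (STL minus CGA of −0.05, −0.08 and 0.00). Of 16 sterol genes 12 lay above (75%, median 0.14), among them Tm7sf2. Of 9 clock genes 8 did (88.9%, against 55.4% of all genes, median 0.27), led by Noct. By mouse, the clock list's median distance from the Ctr2 mean was 0.53, 0.38 and −0.11 in STL mice 1, 2 and 3. Of 62 solute carriers 36 lay above (median 0.06), among them the sodium-proton exchanger Slc9a8 (0.56 ± 0.25). The amino acid transporter Slc6a14, at the other end, differed by −0.92 ± 0.51.

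**Figure D4:**
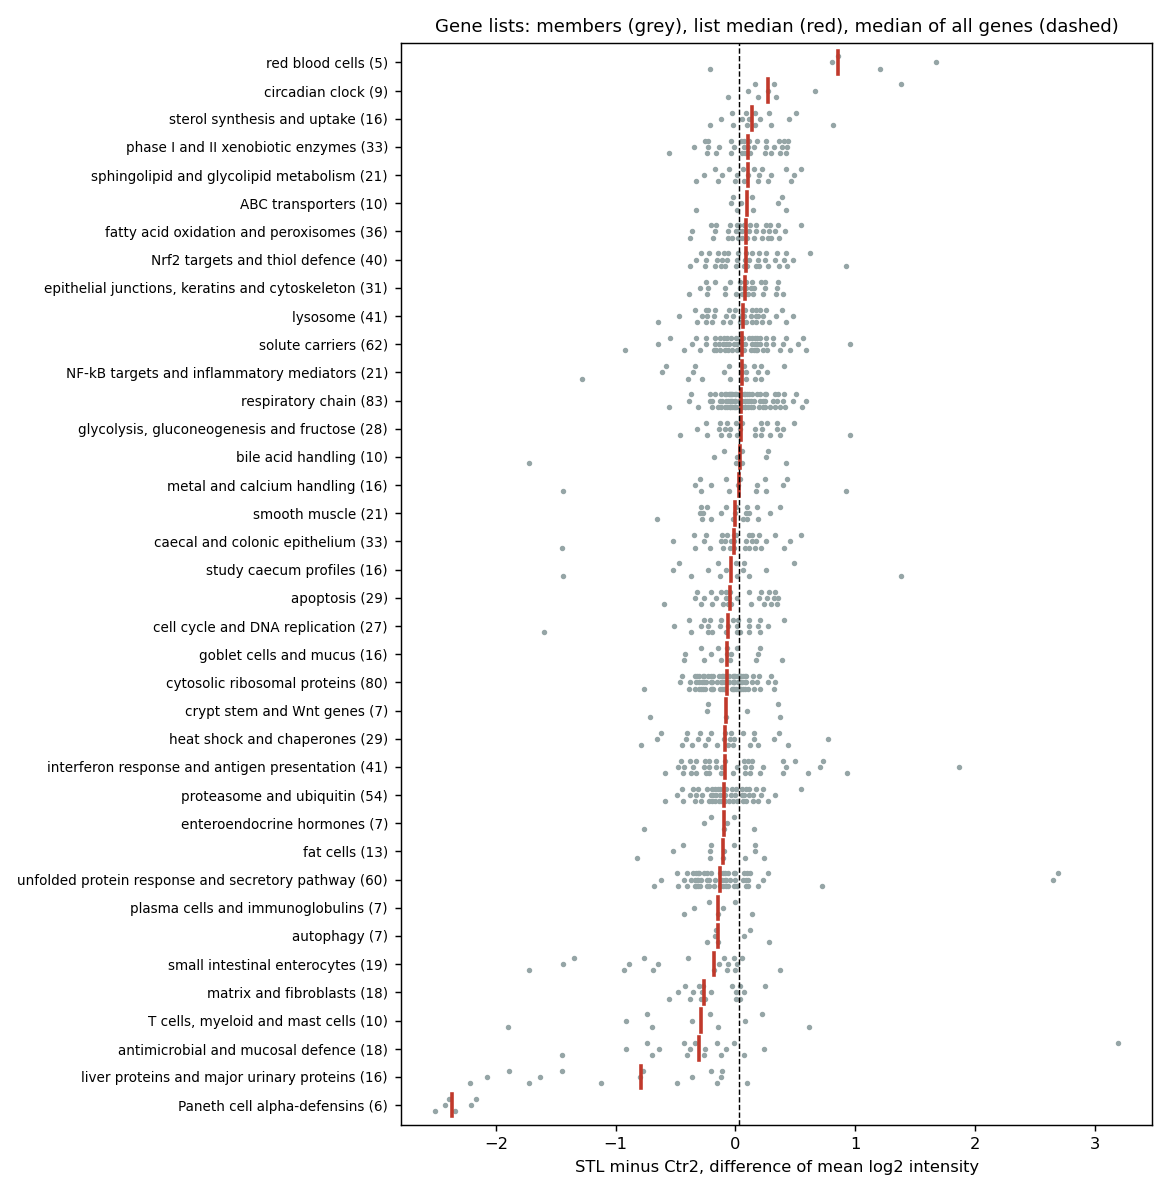
STL minus Ctr2 in the caecum for the measured members (grey points) of each gene list with at least 5 members, with the list's median in red, the median of all genes as a dashed line and the number of members in brackets. Most medians lie within 0.3 of the line, and the alpha-defensins, the liver proteins and the red blood cell genes lie farthest from it.

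The lists farthest from 0 were those of cells and tissues outside the colonic wall, and in each of them 1 mouse stood apart. The 6 measured Paneth cell alpha-defensins had a median of −2.37. Defa1 was read at 7.68 in STL mouse 1, at 12.99 and 14.47 in STL mice 2 and 3 and at 13.36 and 14.92 in the Ctr2 mice. Fabp6, the ileal bile acid-binding protein, went with them, at 7.60, 11.22 and 11.85 against 11.19 and 12.71. The summed linear intensity of the 6 defensins was 782 in STL mouse 1 and 37145 to 116187 in the other 4 mice, and it ran from 252 to 151224 over the 16 caecum arrays. Of the 5 mice, only STL mouse 1 was low, and the defensins of the other 4 overlapped between groups. Defensin genes are near-identical copies, and single members are uncertain. Of 19 genes of small intestinal enterocytes 16 lay below the Ctr2 mean (median −0.18), and their summed intensity was 36868 in STL mouse 1 against 47947 to 62922 in the other 4.

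These genes move with part of the antimicrobial list, in which 15 of 18 lay below the Ctr2 mean (median −0.30) and 4 had all STL mice below both controls (22.2%, against 6.04%). Lyz1, the Paneth cell lysozyme, was read at 9.15, 10.46 and 10.79 against 10.99 and 11.11 (−0.92 ± 0.51), and the protease inhibitor Slpi at 8.50, 8.63 and 9.42 against 9.55 and 9.63 (−0.74 ± 0.36). In both, all 3 STL mice were below the controls. The lectin Reg3g, read at 10.14, 12.02 and 12.95 in STL and at 12.62 and 4.40 in Ctr2, took its difference of 3.20 ± 2.26 from an isolated low spot of Ctr2 mouse 2. The median of this list was −0.22 without STL mouse 1 and −0.18 without Ctr2 mouse 2. What the Paneth cell share of the samples contributes to it was not tested.

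Blood and liver transcripts each singled out another mouse. The haemoglobin gene Hba-a1 was read at 12.32, 11.23 and 14.70 in STL and at 11.49 and 10.66 in Ctr2 (1.67 ± 0.69), and Hbb-bt at 11.64, 10.74 and 14.57 against 10.74 and 11.48. STL mouse 3 was far above the rest in both. Mup20, a major urinary protein of the liver, was read at 5.38, 4.64 and 4.75 against 8.76 and 5.51 (−2.21 ± 1.30), and albumin (Alb) at 4.64, 3.78 and 2.94 against 6.34 and 5.38. Of the 5 mice Ctr2 mouse 1 was the highest in both genes, although in Alb all STL mice lay below both controls. The summed intensity of the 16 liver proteins was 11584 in Ctr2 mouse 1, and it ran from 3814 to 51517 over the 16 caecum arrays. Of these proteins 15 lay below the Ctr2 mean (median −0.79). Mup genes are near-identical copies, and several of these values are among the dimmest on the arrays. Connective tissue genes were lower in 12 of 18 (median −0.26), with Timp2, a metalloproteinase inhibitor, at 10.01, 10.08 and 10.34 against 10.31 and 11.09 (−0.56 ± 0.25, and −0.17 without Ctr2 mouse 2). Timp2 was also below the CGA mice (10.70, 10.92 and 11.19), by −0.79 ± 0.23. The T cell and myeloid list had 7 of 10 below, with the lymphocyte granzyme Gzma at 6.50, 8.07 and 7.71 against 8.24 and 10.41. Caecal and colonic epithelial (17 of 33 below, median −0.01) and smooth muscle lists (11 of 21) lay near the median of all genes. In the goblet cell list 11 of 16 lay below (68.75%, against 44.6% of all genes, median −0.07). Of these, 3 had all STL mice below both controls (18.8% of the list, against 6.04% of all genes), and 0 genes of the list had all above.

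**Figure D5:**
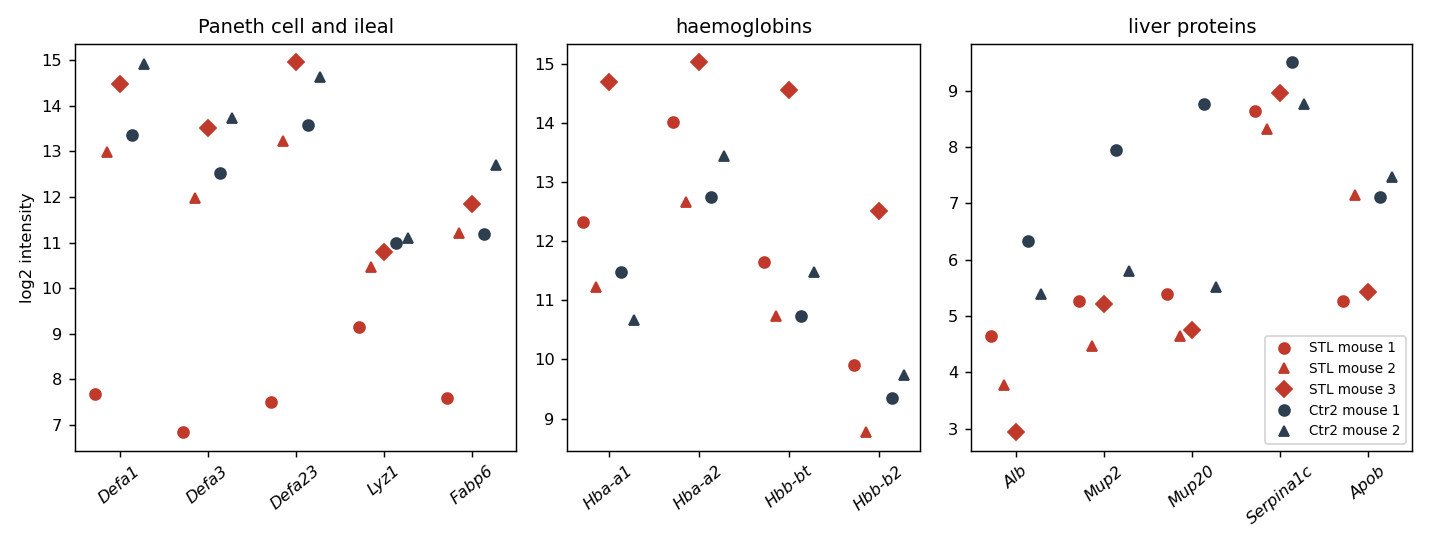
Log2 intensity in the caecum of the 3 STL mice (red) and 2 Ctr2 mice (dark), with one marker shape per mouse number, for Paneth cell and ileal genes, haemoglobins and liver proteins. STL mouse 1 is low in the defensins and Fabp6, STL mouse 3 is high in the haemoglobins, and Ctr2 mouse 1 is high in Mup2 and Mup20.

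The study's own threshold, a linear value over 2.0 or under 0.5 times the control mean, was applied to every STL mouse. It was passed by 5 genes upward (0.132% of those tested) and 13 downward (0.344%). Of the 5, Rhot2, Il17rc and the centromere protein Cenpv were read from isolated low spots of Ctr2 mouse 2, which leaves Gpr157 and the unnamed gene model Gm10845. With those spots missing, 12 genes passed in all. Of the 13, 8 are major urinary protein genes or pseudogenes and 1 is Alb, and the remaining 4 were Gzma, Clca4b, Sgk3 and 2210407C18Rik, named here after their values were seen. Sgk3 owed its place to Ctr2 mouse 1, at 11.92, with 9.55 in Ctr2 mouse 2 and 9.39 to 9.62 in STL. The same held for Mup1, Mup4, Mup17, Mup18 and Mup19, where Ctr2 mouse 2 lay within or below the STL range. Mup19 was read at 10.87 and 6.55 in Ctr2 and at 7.57, 7.70 and 8.54 in STL. In the rest of the 13, all STL mice lay below both controls.

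Against the CGA mice, likewise, no gene passed the adjusted threshold in limma (0%), and 41 reached an unadjusted p under 0.05 (1.09%). All 3 STL mice lay above all 3 CGA mice in 73 genes (1.93%) and below in 104 (2.75%). Cst3, Pde4c and Gpr157, given above, were on the same side of both groups, and for Rtp4 the difference from CGA was 0.71 ± 0.35. For Mrpl4, Cisd3, Psmc1 and Gsdmc4 it was between −0.09 and 0.12, with standard errors of 0.15 to 0.20. STL and CGA share the same 2 Ctr2 mice as controls. For Mrpl4, the 10 arrays of Ctr1, Ctr2, Chic and Fru (fructose) lay between 9.71 and 10.28 and the 6 of STL and CGA between 10.52 and 10.78. For Cisd3 these ranges were 10.97 to 11.48 and 11.80 to 12.16, and for Psmc1 10.67 to 11.03 and 11.29 to 11.73. In these 3 genes the Ctr2 mice thus lay among the other groups, and STL and CGA lay above them all. For Gsdmc4 the Ctr2 mice were 11.36 and 11.86 and the Ctr1 mice 10.98 and 10.89, close to STL mice 1 and 2 (10.88 and 10.89).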

How the data were processed

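RNA of single mice was hybridised to 1-colour Agilent arrays. The deposited values are linear spot intensities in a table of 6214 rows. The submitters' processing notes name Agilent Feature Extraction, whereas the study's methods name a GenePix scanner and GenePix Pro for reading the images, so the software behind the deposited intensities is unsettled. Quantile normalization is named in the study's methods, but the deposited arrays differ in their distributions, so the 16 caecum arrays were quantile normalized here after log2. The 227 control rows and 878 rows with no gene symbol were left out, and 5 values at or below 0 on the 5 arrays compared were set to missing. Spots of a probe were averaged, and each of the 3777 genes was read from its brightest probe. RefSeq accessions updated 86 symbols and synonyms 8.

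The 6 groups were fitted together in limma 3.58.1 (R 4.3.3), as lmFit with eBayes, with Benjamini-Hochberg correction across the 3777 genes and a threshold of 0.05. STL was compared with Ctr2 and with CGA. Alternatives were other normalizations, probe averages, a filter on dim genes, array weights, a replicate block and leaving out each array. Genes were named as the 12 of lowest p in each direction, leaving out gene models, clone and LOC names, up to 4 members per list by moderated statistic, the study's caecum profiles and the brightest markers. Further genes are examples of a list, chosen after their values were seen. Genes and lists were chosen with earlier results of these data known. The fit was tested on simulated data. Figures were drawn with matplotlib 3.10.9 in Python 3.11.15. The number of mice, 3 against 2, limits the precision.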

Additional observations from a re-analysis of the deposited data

How the results depend on the processing

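No gene was called against Ctr2 under any alternative except without Ctr2 mouse 1, which left Ctr2 mouse 2 as the only control and called 20 genes in limma, 16 of them read from the isolated low spots of that array, with its spread assumed to be that of the other groups (range 0 to 20 over left-out mice, lowest adjusted p 1.89e-06 for Il17rc). None was called against CGA. The count at unadjusted p under 0.05 ran from 15 with the values as deposited to 290 with array weights and was 274 with Ctr1 and Ctr2 pooled. Whether the replicate numbers pair the mice could not be decided. Deviations from the group mean correlated at r of 0.23 and −0.24 between STL and Ctr2 mice of the same number. With 2 Ctr2 arrays, the Ctr2 deviations mirror each other, so these values are not separate checks. The fit with a replicate block called 0 genes and put 157 at unadjusted p under 0.05. The study's threshold was passed by 18 genes, by 31 with the values as deposited, 7 without the dimmest 25 percent of genes, 49 by the STL mean, and 21 to 59 with a mouse left out (59 without STL mouse 3, 44 without Ctr2 mouse 1). The settings with the isolated low spots missing or without the dimmest array were chosen after seeing the data. The cause of these shifts was not tested.

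With Ctr1 and Ctr2 pooled, 55 of the 97 named genes moved by over 1.5 times or changed sign. Some took the other sign. With the values as deposited, the difference was −0.31 for Akr1b8, −0.20 for Cables1, −0.33 for Cox7c, −0.25 for Gla, −0.058 for Irf2bp2, −0.22 for Nfkbia, −0.16 for Rela, −0.34 for Saa3, −0.24 for Syvn1 and −0.30 for Txnrd1. At a common 75th percentile, the difference was −0.0043 for Akr1b8, −0.029 for Cox7c and −0.041 for Saa3. With Ctr1 and Ctr2 pooled, the difference was 0.37 for Anp32a, 0.43 for Chtf8, 0.24 for Ctbp2, 0.032 for Hsp90b1, 0.070 for Mzb1, 0.13 for Pdia6, 0.19 for Pigt and 0.070 for Xbp1. With probes averaged, the difference was −0.20 for Cox7c and −0.094 for Hspa8. With the replicate block, the difference was −0.022 for Gla and −0.061 for Syvn1. With array weights, the difference was −5e-04 for Nfkbia, −0.046 for Syvn1 and −0.030 for Txnrd1. With the isolated low spots missing, the difference was −0.92 for Reg3g and −0.57 for Sec61a1. With 1 mouse left out, it ran from −0.070 to 0.077 for Akr1b8, −0.30 to 0.17 for Anp32a, −0.24 to 0.47 for Cables1, −1.37 to 0.15 for Ccl5, −1.40 to 0.36 for Cfd, −0.64 to 0.18 for Chtf8, −0.13 to 0.23 for Cox7c, −0.28 to 0.023 for Ctbp2, −0.37 to 0.48 for Gla, −0.38 to 0.084 for Mzb1, −1.31 to 0.034 for Pigt, −0.92 to 7.31 for Reg3g, −0.11 to 0.25 for Saa3, −0.57 to 5.95 for Sec61a1, −0.17 to 0.29 for Syvn1, −0.14 to 0.18 for Txnrd1 and −0.39 to 0.38 for Xbp1.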
